A study of Homo sapiens with 6 samples.

Results

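The integrated stress response was examined here through 10 genes that carry its transcriptional arm: the bZIP transcription factors ATF4, ATF3 and DDIT3 (which encodes CHOP), and their known targets TRIB3, CHAC1, SESN2, GDF15, ASNS, PPP1R15A and DDIT4. The genes were taken as a list of names, and every probe set annotated to 1 of them alone was used, which gave 18 probe sets of the 54675 on the array. All 10 genes were represented. The tested cells were MDA-MB-231, a mesenchymal-like, triple-negative human breast cancer line, carrying a stable pLKO.1 lentiviral hairpin against ATAD3A, an ATPase of the inner mitochondrial membrane (shATAD3A, 3 arrays). Their controls were the same line with a pLKO.1 hairpin against GFP (shGFP, 3 arrays). Both had been infected, selected for 2 weeks in 1.0 µg/ml puromycin and used at passage 2, so virus and drug were shared by both groups. The labels do not name the hairpin sequences or state if the 3 replicates of a group came from different cultures. The tests therefore rest on array-to-array spread alone, and that spread may be technical.

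The integrated stress response starts when a kinase phosphorylates the translation factor eIF2, which slows most protein synthesis and favours translation of the ATF4 mRNA. ATF4 protein then activates genes of amino acid supply and redox balance, and induces DDIT3 and ATF3. In mammalian cells, mitochondrial faults can reach the same pathway through the protease OMA1, the messenger DELE1 and the kinase EIF2AK1. Because ATF4 is largely set at translation, its mRNA level is not a measure of its protein.

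The members moved apart. ATF3, DDIT3 and GDF15 were higher in shATAD3A cells by 2-fold or more, while ASNS, DDIT4 and, slightly, ATF4 itself were lower. TRIB3, CHAC1, SESN2 and PPP1R15A missed the threshold. Of the 18 probe sets, 3 rose and 3 fell by limma at a Benjamini-Hochberg adjusted p of 0.05 over all probe sets, beside 22.4% of all 54613 probe sets called (12% up and 10.5% down). Restricted to the 10 member probe sets that lay above the low mode of the array's values in at least 1 group, 6 were called, beside 52.2% of all such probe sets. On 1 probe set per gene, the brightest, 6 of 10 members were called, beside 33.6% of all 19775 genes and 62% of genes above the low mode. The members' share is thus near that of genes with comparable signal. The median change of the 10 members was 0.13, beside -0.00084 over all genes, and the median size of change was 0.41, beside 0.082. Many of all genes lie in the low mode, where changes are small. Among probe sets above it, the median size was 0.40 for the members and 0.29 for all. Groups did not overlap for 8 of 18 member probe sets, beside 33.2% of all probe sets, or for 8 of 10 genes, beside 42% of all genes. Among probe sets above the low mode, this held for 7 of 10 of the members', beside 15081 of all 22445, which is a similar share. The 3 increases lay at the 96.7th percentile of all genes' changes (DDIT3) or above, and ASNS and DDIT4 at the 2.89th and 5.89th.

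**Figure D1:**
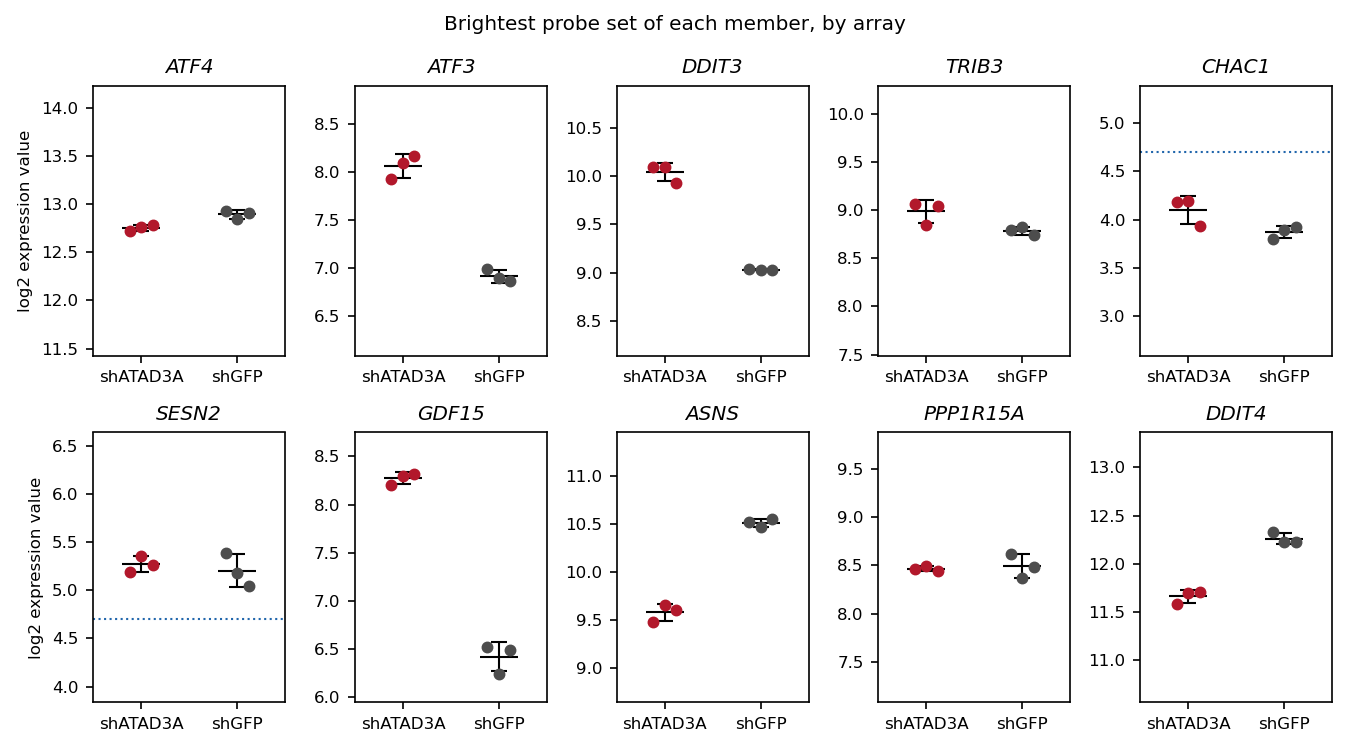
Log2 expression value (y axis, the same span in each panel) of the brightest probe set of each member on the 3 shATAD3A arrays (red, left) and the 3 shGFP arrays (grey, right), with mean and SD over n = 3; the dotted line marks the upper edge of the low mode, 4.70. ATF3, DDIT3 and GDF15 stand higher and ASNS and DDIT4 lower in shATAD3A cells with no overlap, while both groups of CHAC1 lie under the line.

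For reference to the sequences behind these genes, the RefSeq promoter windows (250 bases before to 50 bases after an annotated start, GRCh38.p14) of all 10 members were searched on both strands. The motif TGATGNAA is the core shared by C/EBP-ATF composite elements, through which ATF4 and its C/EBP partners bind. It was present in 3 of 16 member windows, beside 3.62% of all 35116 windows of this length. The cAMP response element TGACGTCA, a palindrome bound by ATF and CREB factors, was present in 1 member window, beside 1.85% of all windows. No match in a window says only that these letters are not in it, and a match is a description of the letters. The 4 windows with a match are shown because their genes cover each outcome seen here: ATF3 rose, ASNS fell, and CHAC1 and PPP1R15A were not called. Capitals mark the match, and each sequence runs 5′ to 3′ on the gene's strand. In ATF3 (chr1:212565157-212565456, plus strand) the match spans positions -191 to -184 from the start, and in ASNS (chr7:97872359-97872658, minus strand) -68 to -61. In CHAC1 (chr15:40953221-40953520, plus strand) it lies on the opposite strand at -209 to -202, and in PPP1R15A (chr19:48872171-48872470, plus strand) the response element spans -58 to -51.
ATF3: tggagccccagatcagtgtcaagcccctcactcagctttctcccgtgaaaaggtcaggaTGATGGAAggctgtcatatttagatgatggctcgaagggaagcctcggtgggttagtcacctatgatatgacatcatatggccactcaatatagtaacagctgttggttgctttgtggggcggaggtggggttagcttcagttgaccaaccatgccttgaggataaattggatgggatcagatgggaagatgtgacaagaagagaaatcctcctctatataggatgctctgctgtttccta
ASNS: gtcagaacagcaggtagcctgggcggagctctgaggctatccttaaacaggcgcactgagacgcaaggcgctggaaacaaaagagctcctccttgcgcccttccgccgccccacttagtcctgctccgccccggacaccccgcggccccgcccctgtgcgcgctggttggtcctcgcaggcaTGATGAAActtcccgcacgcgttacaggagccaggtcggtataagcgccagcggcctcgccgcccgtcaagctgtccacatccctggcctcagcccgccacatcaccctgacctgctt
CHAC1: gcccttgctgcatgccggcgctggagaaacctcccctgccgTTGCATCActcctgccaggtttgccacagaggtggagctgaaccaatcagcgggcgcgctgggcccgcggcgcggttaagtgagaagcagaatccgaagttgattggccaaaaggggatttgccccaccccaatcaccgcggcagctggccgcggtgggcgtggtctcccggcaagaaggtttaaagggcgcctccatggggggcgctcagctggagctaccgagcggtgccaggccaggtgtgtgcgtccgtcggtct
PPP1R15A: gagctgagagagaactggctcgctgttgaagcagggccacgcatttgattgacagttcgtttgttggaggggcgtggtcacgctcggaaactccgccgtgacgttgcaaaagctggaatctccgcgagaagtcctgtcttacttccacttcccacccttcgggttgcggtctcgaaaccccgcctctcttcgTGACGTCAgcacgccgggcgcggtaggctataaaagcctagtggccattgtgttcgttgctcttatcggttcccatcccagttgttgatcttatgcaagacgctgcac

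Among the transcription factors, ATF4 was slightly lower and ATF3 and DDIT3 were higher. ATF4 read 12.72, 12.76 and 12.79 on the shATAD3A arrays, against 12.93, 12.84 and 12.91 on the shGFP arrays (log2 expression values). Every shATAD3A array was below every shGFP array, but by little: the change was -0.14 ± 0.035 (SE; limma adjusted p = 0.0359), so that ATF4 fell by 9.33%. This call is weak, since it was lost in 10 of 15 alternative settings, with adjusted p between 0.0101 and 0.144 over all of them. It was lost without any of the 3 shATAD3A arrays or without shGFP array 1 or 3 (adjusted p from 0.0603 to 0.122). With the replicate number as a block the adjusted p was 0.124.

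DDIT3 encodes CHOP, which ATF4 induces and which in turn drives genes of recovery of translation and of cell death. It read 10.10, 10.10 and 9.93 on the shATAD3A arrays, against 9.04, 9.03 and 9.03 on the shGFP arrays. The shGFP arrays were nearly identical (SD 0.0065), and all shATAD3A arrays lay clearly above them. The change was 1.01 ± 0.051 (SE; limma adjusted p = 8.87e-05), or 2.02-fold, and it held in all 15 alternative settings (0.98 to 1.07). The 25 measured genes on either side of DDIT3 had a median change of 0.14. With that subtracted, DDIT3 changed by 0.87 (adjusted p = 6.59e-05). For the other 9 members this neighbour median lay between -0.040 and 0.035.

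ATF3 is induced by ATF4 and by many other stresses, and as a homodimer it represses genes with ATF sites, its own included. Of its 2 promoter windows, 1 carries TGATGGAA, shown in capitals above. On its brightest probe set it read 7.93, 8.10 and 8.16 on the shATAD3A arrays, against 6.99, 6.90 and 6.86 on the shGFP arrays. The groups were separated by more than the range within either. The change was 1.14 ± 0.071 (SE; limma adjusted p = 0.00018), or 2.21-fold. The other ATF3 probe sets, near 3.1 and near 2.0 in both groups, sat in the low mode and missed the threshold (changes of 0.039 and -0.036).

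GDF15, a secreted member of the TGF-beta superfamily that is used as a marker of mitochondrial stress, showed the largest change of the 10 members. It read 8.21, 8.30 and 8.32 on the shATAD3A arrays, against 6.53, 6.25 and 6.49 on the shGFP arrays. The shATAD3A arrays were tight and the shGFP arrays more spread, with a wide gap between the groups. The change was 1.85 ± 0.081 (SE; limma adjusted p = 5.6e-05), or 3.62-fold. This came from an x_at probe set, a type whose probes may cross-hybridise with other transcripts. The other GDF15 probe sets read under 2 on every array and changed by -0.023 and -0.029, neither called. GDF15 and SESN2 are also p53 targets, and DDIT4 is also a target of p53 and of the hypoxia factor HIF-1, so these values are not specific to ATF4.

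ASNS, asparagine synthetase, makes asparagine from aspartate and is one of the best-studied ATF4 targets, through the element that holds TGATGAAA in the window above. It read 9.49, 9.65 and 9.61 on the shATAD3A arrays, against 10.52, 10.47 and 10.55 on the shGFP arrays. The groups were far apart, in the direction opposite to DDIT3. The change was -0.93 ± 0.051 (SE; limma adjusted p = 0.00012), and ASNS fell by 47.5%. A second ASNS probe set, near 3.0 on all arrays, sat in the low mode (change -0.012, adjusted p = 0.957).

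TRIB3 and CHAC1 are feedback and redox targets of the pathway. TRIB3, a pseudokinase that binds ATF4 and restrains it, read 9.07, 8.85 and 9.04 on the shATAD3A arrays, against 8.80, 8.82 and 8.74 on the shGFP arrays. The lowest shATAD3A array was just above the highest shGFP array. The change of 0.20 (95% confidence interval 0.040 to 0.36) missed the threshold (limma adjusted p = 0.0901), and passed without shATAD3A array 2 (change 0.27, adjusted p = 0.00726) and with probe sets of the low mode removed (adjusted p = 0.045). The other TRIB3 probe set lay near 1.9 on every array.

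CHAC1 degrades glutathione and is induced by ATF4 together with ATF3. It read 4.18, 4.19 and 3.93 on the shATAD3A arrays, against 3.80, 3.89 and 3.92 on the shGFP arrays. All 6 values lay in the low mode, where they hold little signal, and the groups were set apart only by the second decimal. The change of 0.23 (95% confidence interval 0.030 to 0.43) missed the threshold (limma adjusted p = 0.115), and passed without shATAD3A array 3 (change 0.31, adjusted p = 0.0114).

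DDIT4 (REDD1) and SESN2 both restrain the growth kinase complex mTORC1. DDIT4 read 11.59, 11.70 and 11.71 on the shATAD3A arrays, against 12.33, 12.23 and 12.23 on the shGFP arrays. The groups did not overlap. The change was -0.60 ± 0.047 (SE; limma adjusted p = 0.000435), and DDIT4 fell by 33.9%.

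SESN2 (sestrin 2), a leucine sensor of the pathway, read 5.19, 5.36 and 5.26 on the shATAD3A arrays and 5.39, 5.18 and 5.04 on the shGFP arrays on its brighter probe set. The groups overlapped, and the change of 0.066 (95% confidence interval -0.17 to 0.30) missed the threshold (limma adjusted p = 0.817). Its other probe set read 4.52, 4.72 and 4.50 against 4.46, 4.49 and 4.50 on the shGFP arrays, with both means just under the edge of the low mode and a change of 0.096 (adjusted p = 0.455).

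PPP1R15A (GADD34), the stress-induced subunit that directs a phosphatase to eIF2 and so restores translation, is a known CHOP target. Its brighter probe set read 8.46, 8.49 and 8.44 on the shATAD3A arrays, against 8.62, 8.37 and 8.48 on the shGFP arrays. The shATAD3A values lay inside the shGFP range. The change was -0.026 (95% confidence interval -0.19 to 0.14; limma adjusted p = 0.912), and the other probe set gave 0.0015 (-0.19 to 0.20; adjusted p = 0.997). These intervals leave out a change of the size seen for DDIT3.

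**Figure D2:**
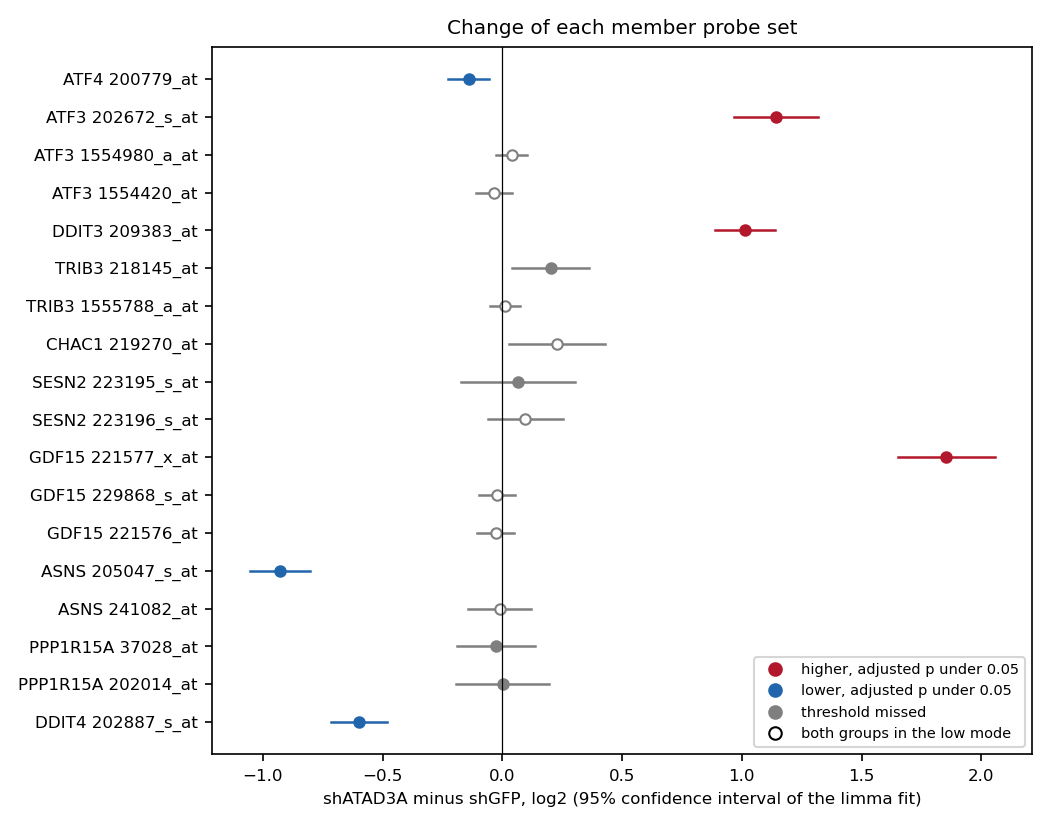
Change of each of the 18 member probe sets (points, shATAD3A minus shGFP on the log2 scale) with its 95% confidence interval from the limma fit (lines); open points mark probe sets with both groups in the low mode. No open point was called, and the 3 increases and 3 decreases each came from 1 probe set per gene.

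The agreement of probe sets was tested as the difference of their changes. PPP1R15A alone among the members had more than 1 probe set above the low mode on average, and their changes differed by 0.028 (95% confidence interval -0.15 to 0.20; limma adjusted p = 0.829). Of 8177 such pairs in 4848 genes over the whole array, 2006 (24.5%) differed in their change. With pairs of any brightness, an alternative added after seeing the data, 5 of 8 member pairs differed, beside 25.1% of all 21316 pairs. These 5 were the dim probe sets of ATF3, GDF15 and ASNS, whose changes minus that of the brightest probe set were 0.92 for ASNS and between -1.10 (ATF3) and -1.88 (GDF15) for the others. SESN2 and TRIB3 were not among them (limma adjusted p = 0.893 and 0.129). The 5 dim probe sets sat in the low mode and hardly changed. Their differences thus mirror the change of the brightest probe set and say little about agreement. Averaging all probe sets of a gene therefore lowered the size of change to 0.38 for ATF3, 0.60 for GDF15 and -0.47 for ASNS, all still called. With s_at and x_at probe sets left out, which took out the brightest probe sets of ATF3, GDF15, ASNS, DDIT4 and SESN2, only DDIT3 rose and ATF4 fell among the members.

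**Figure D3:**
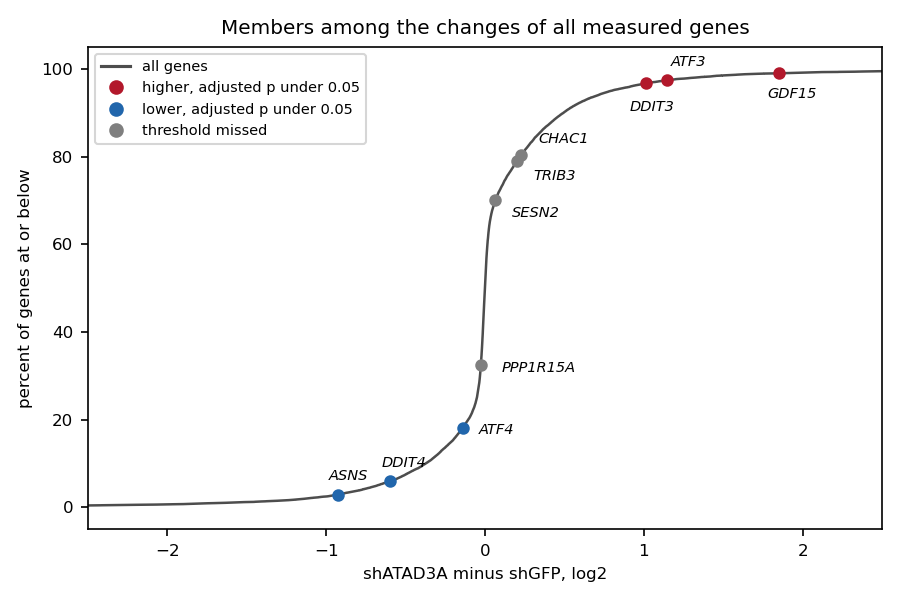
Share of all 19775 measured genes with a change at or below the value on the x axis (grey line; log2, shATAD3A minus shGFP, brightest probe set), with the 10 members placed on it. GDF15, ATF3 and DDIT3 lie in the upper tail and ASNS and DDIT4 in the lower, with the other 5 members in the steep middle or at its edges.

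The other genes of the pathway also went both ways. In all, 106 measured genes on 7 lists gave 19 increases and 33 decreases on their brightest probe sets, beside 19.7% of all genes up and 13.9% down. Most of the listed genes lie above the low mode, where 62% of all genes were called in either direction. The 52 calls among the 106 are under that share, but the 106 include genes in the low mode, so the shares are not matched. Adjusted p-values of the listed genes below are from limma over all genes. Those given for another probe set of a gene are from the fit over all probe sets. Of these 52 calls, 5 (EIF2B1, EIF2B5, CASTOR2, EIF4EBP1 and XPOT) missed the threshold in the fit over all probe sets, with adjusted p from 0.0502 to 0.0648. With the neighbour median removed, 3 were lost (EIF2B1, TRIB1 and XPOT). The list of sensors, eIF2 and eIF2B also holds regulators of the sensors and subunits of the eIF2 phosphatase. Of its 20 genes, 6 rose and 5 fell, with a median change of 0.040. The eIF2 kinases split: EIF2AK3 (PERK), which senses unfolded protein in the endoplasmic reticulum, rose by 0.69 (adjusted p = 1.57e-05) and the RNA-activated EIF2AK2 (PKR) by 0.23. EIF2AK4 (GCN2), which senses uncharged tRNA, fell by 0.67 (adjusted p = 6.95e-05), and EIF2AK1 (HRI) fell by 0.62 (adjusted p = 0.00236). OMA1, the mitochondrial protease upstream of EIF2AK1, rose by 0.47 (adjusted p = 0.0034), while DELE1 changed by -0.14 (adjusted p = 0.327). EIF2B4 of the eIF2 exchange factor rose by 0.44. IMPACT, an inhibitor of GCN2, fell by 0.36 on its brightest probe set, with 0.12 (adjusted p = 0.297) on another.

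Of 15 bZIP partners and regulators, 2 rose and 5 fell, with a median of -0.13. CEBPB and CEBPD, which can pair with ATF4 and CHOP, rose by 0.33 and 0.39. BATF3 fell by 1.01, JUNB by 0.58 and ATF6, a sensor of the unfolded protein response, by 0.45. Among the 25 genes on either side of JUNB the median change was -0.33. With that subtracted, JUNB changed by -0.25 (limma adjusted p = 0.00416).

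Of 20 amino acid and one-carbon targets of ATF4, 4 rose and 5 fell, with a median of -0.0026. The cystine transporter SLC7A11 rose by 1.41 (adjusted p = 5.88e-06), and the mitochondrial folate enzymes MTHFD2 and SHMT2 rose by 0.84 and 0.69. The neutral amino acid transporter SLC1A4 fell by 2.20 (adjusted p = 4.11e-06), CTH of cysteine synthesis by 1.68 and PSPH of serine synthesis by 1.37. Other probe sets of SLC7A11, SHMT2, SLC1A4, CTH and PSPH above the low mode were called in the same directions. SLC1A4, CTH and PSPH were thus lower like ASNS, and SLC7A11, MTHFD2 and SHMT2 higher like DDIT3. SHMT2 lies near DDIT3 on chromosome 12 and shares its neighbour median of 0.14. With that subtracted, SHMT2 changed by 0.55 (limma adjusted p = 0.000456). Of 11 aminoacyl-tRNA synthetases of the ATF4 programme, 1 rose and 5 fell, with a median of -0.14. GARS1, NARS1 and CARS1 fell by 0.57, 0.52 and 0.48, while WARS1, which interferon also induces, rose by 0.46, with 0.35 (adjusted p = 0.0527) on its other probe set.

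Of 19 other stress outputs of ATF4 and CHOP, 4 rose and 7 fell, with a median of 0.011. The lipoprotein receptor VLDLR rose by 1.30 (adjusted p = 1.37e-05), the haem oxygenase HMOX1 by 0.91 (adjusted p = 0.0103) and the autophagy receptor SQSTM1 by 0.65. VEGFA, also a hypoxia target like DDIT4, fell by 1.84 (adjusted p = 1.04e-05), NIBAN1 by 1.11 and JMY by 0.98. FGF21 and STC2 sat in the low mode and missed the threshold. Of 15 brakes and sensors of mTORC1, 2 rose and 3 fell, with a median of 0.029. NPRL3 of the GATOR1 complex rose by 0.71 on its brightest probe set, with -0.24 (adjusted p = 0.344) on another, and SEH1L of the GATOR2 complex and the nuclear pore fell by 1.02. CASTOR1 fell by 0.69, within the low mode. The translation repressor EIF4EBP1 (-0.19) and CASTOR2 (0.38, within the low mode) were called over genes (adjusted p = 0.0381 and 0.0313) but not over probe sets (adjusted p = 0.0572 and 0.0502).

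**Figure D4:**
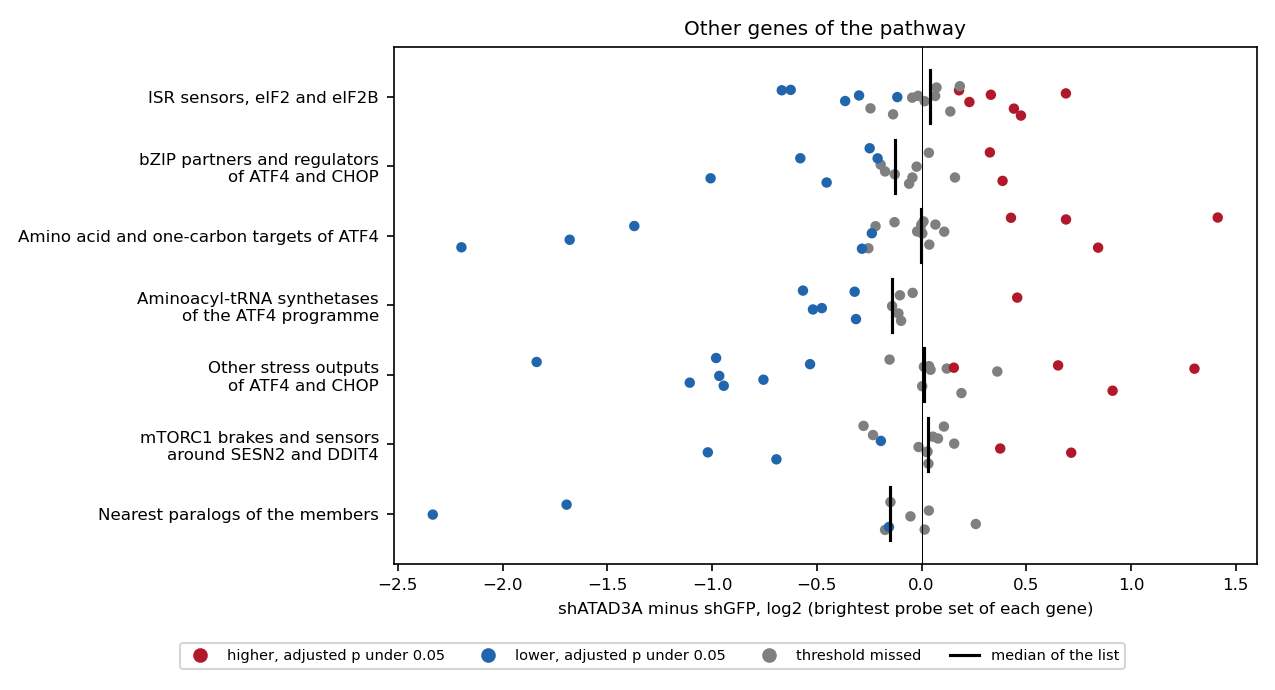
Change of every measured gene on the 7 pathway lists (points; log2, shATAD3A minus shGFP, brightest probe set; vertical position within a list is arbitrary), coloured by call, with the median of each list as a black bar. Every list holds points on both sides of 0, and the medians lie between -0.15 and 0.040.

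Of 9 measured nearest paralogs of the members, 0 rose and 3 fell by limma (median -0.15), and 4 had an unadjusted p under 0.05. The called share, 33.3%, is near the 33.6% of all genes and under the 62% of genes above the low mode, where 8 of the 9 lie. TRIB2 fell by 1.69 (adjusted p = 3.25e-06), and also on its other probe set, and TRIB1 fell by 0.16 (adjusted p = 0.026), a call that was lost with the neighbour median removed (-0.12, adjusted p = 0.068). SESN3 fell by 2.33 (adjusted p = 0.000622), into the low mode in shATAD3A cells, so its fold is imprecise. The other SESN3 probe sets all sat in the low mode and missed the threshold, with changes from -0.062 to 0.019. SESN1, CHAC2, PPP1R15B, DDIT4L, JDP2 and ATF5 missed the threshold, with changes from -0.17 (ATF5) to 0.26 (CHAC2).

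Genes with a profile like that of a member were sought among 10236 genes above the low mode, by the root mean square difference of array values after centring each gene on its own mean over the 6 arrays. Closest to GDF15 were TLCD4 (0.067), the mitochondrial carrier UCP2 (0.076) and PRR16 (0.078), whose changes were 1.93, 1.98 and 1.91. Closest to ASNS were the vesicle protein VAMP7 (0.012), the MAX-binding repressor MXI1 (0.020) and RGMB (0.028), with changes of -0.93, -0.94 and -0.89. These profiles differ mainly between the groups, so likeness here says little more than that the changes are of like size.

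The targeted gene ATAD3A read 7.41, 7.03 and 7.39 on shATAD3A arrays, against 7.73, 7.78 and 7.80 on shGFP arrays, with no overlap. Its change over all probe sets tested was -0.49 ± 0.107 (SE; limma, adjusted p = 0.022). This is its only probe set with 1 symbol, of the x_at type, whose probes may also bind related transcripts. That call was lost without shGFP array 1, 2 or 3 (adjusted p = 0.0596, 0.0687 and 0.0748). Array medians lay between 3.16 and 3.23. All 6 markers of the line (VIM, CD44, MSN, AXL, CAV1 and ZEB1) lay above the low mode, and 5 of them fell by 0.25 to 0.45. The luminal markers ESR1, PGR and FOXA1 lay in the low mode, and ERBB2 and GATA3 above it. Of the markers of other cell types, 0 of 5 leukocyte, 1 of 7 fibroblast (COL1A1), 1 of 5 endothelial (PECAM1) and 1 of 5 keratinocyte markers (KRT10) lay above it. Their summed linear values on shATAD3A arrays, against shGFP arrays, were 35.2 to 37.2 against 45.3 to 53.0 for leukocytes and 688 to 728 against 349 to 410 for fibroblasts. They were 53.8 to 73.7 against 104 to 144 for endothelium and 4899 to 5475 against 4571 to 4801 for keratinocytes. The part of these shifts in the members' results was not tested. In a bulk measurement, fewer cells with a transcript and less of it per cell cannot be told apart.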

How the data were processed

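Total RNA (250 ng) was labelled by a 3' in vitro transcription kit and hybridised to U133 Plus 2.0 arrays, per the labels' protocols. The deposited values are log2 expression values per probe set, summarised and normalized by the authors. The log2 scale was read from their range (0.826 to 16.6), while background correction, normalization and summary method are not given in the sources used here. The submitters' processing notes name Partek, with no version. No detection calls were used, and the number of arrays limits the precision.

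The table held 54675 probe sets, 62 of them controls, which were left out. By the platform annotation of 2016, 41091 of the rest name 1 gene, 1801 several and 11721 none. Matching Entrez IDs to the RefSeq table of GRCh38.p14 changed 0 symbols, and 54 IDs had no entry. All probe sets other than controls were fitted in R 4.3.3 with lmFit and eBayes of limma 3.58.1, two-sided and without covariates, and p-values were adjusted over all of them by the Benjamini-Hochberg method. A second fit used the brightest probe set of each gene. The low mode ends at 4.70, the lowest point between the modes of mean gene values, a boundary chosen on these data. Pairs of probe sets of a gene were tested by fitting their within-array difference. The fits were tested on simulated data. The members, the 7 pathway lists, the 6 marker lists and the rule for naming genes were chosen with earlier results of these data known. Named were all members and paralogs, up to 3 called increases and 3 decreases per list, and the 3 genes most like the members with the largest rise and fall; some genes are added that were picked after their values were seen (EIF2AK2, DELE1, FGF21 and STC2).

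Arrays with the same replicate number did not deviate together (correlations -0.213, -0.106 and 0.0379), so the numbers do not pair the arrays. No batch is recorded in the labels used here. Alternatives covered normalization, dim probe sets, the variance prior, array weights, probe set type and choice, the replicate block, leaving out each array and neighbouring genes (25 on either side, added later).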

Additional observations from a re-analysis of the deposited data

How the results depend on the processing

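ATF3, DDIT3, GDF15, ASNS and DDIT4 kept their direction and call in every alternative in which their brightest probe set was tested (14 or 15 each). ATF4 lost its call in 10 of 15, as given above. Without s_at and x_at probe sets, which leaves fewer probe sets, 7249 probe sets were called in place of 12240, and among members 1 probe set was called up and 1 down, as were 1 gene up and 1 gene down. Leaving out 1 array gave 10410 to 11725 probe sets called, 3 to 4 member probe sets up and 2 to 3 down, and 1420 to 1902 differing pairs. The count of differing pairs was 5355 with no boundary on low values. ATAD3A ranged from -0.56 to -0.37 without 1 array. With the replicate number as a block, 10773 probe sets were called, with 3 member probe sets up and 2 down, and ATF4 was the only member whose call changed (adjusted p = 0.124). Changes of sign were limited to uncalled values near 0. PPP1R15A gave -0.029 after quantile normalization on its dimmer probe set and 0.023 with array weights on its brighter one. Without 1 array these ranged from -0.050 to 0.075 and from -0.086 to 0.039, and the difference between the probe sets from -0.011 to 0.047. SESN2 ranged from -0.014 to 0.16 on its brighter probe set, the dim ASNS probe set from -0.053 to 0.023 and the dim TRIB3 probe set from -0.0028 to 0.022. Counts on the pathway lists stayed within 14 to 25 up and 26 to 41 down. Values in the low mode carry little signal above background, which limits CHAC1 and the dim probe sets.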
